A study of Mus musculus with 8 samples.

Results

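Clps-rich Paneth cells were the 2472 of 4944 Paneth cells in which UMIs of Clps, Gm14851, Defa23 and AY761184 weighed most against those of Defa21, Defa22, Gm15308 and Gm21002. A barcode was kept with at least 1500 UMIs, at least 200 genes and at most 30% mitochondrial UMIs, and counted as a Paneth cell when at least 20% of its UMIs came from genes whose symbol starts with Defa. In each Paneth cell, f was the share of the UMIs of these 8 genes that came from Defa21, Defa22, Gm15308 and Gm21002, and members were chosen by f below the pooled median of 0.636. The members numbered 1845 in the WT library and 627 in the KO library, out of 16469 kept barcodes and 28750 barcodes in all. Defa21-rich Paneth cells, those with f at or above the cut (1896 in WT and 576 in KO), served as the comparison.

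The cells were EpCAM+ epithelial cells sorted from small intestinal crypts of adult mice and profiled with droplet 3′ single-cell RNA sequencing, in which each UMI stands for 1 captured RNA molecule. WT were control H11 i.enh mice, which carry a LacZ-iCre reporter driven by the Shh promoter and the core of the ieCtnnb1 enhancer at the H11 locus. KO were Ctnnb1 Δi.enh mice, in which ieCtnnb1, an intestinal enhancer upstream of the β-catenin gene Ctnnb1, was deleted in the germline. The study pooled female mice of each genotype. The labels name 4 samples per genotype, but the cells of each genotype came as 1 pooled matrix with no map from cells to samples, so each genotype counts as 1 library, no test was possible and every interval below is an exact 95% interval that covers counting error only.

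Paneth cells sit at the base of small intestinal crypts between Lgr5+ stem cells, and secrete granules of lysozyme, α-defensins (cryptdins) and other antimicrobial proteins into the crypt lumen. Wnt signals at the crypt base drive their differentiation, and α-defensin genes are known targets of β-catenin with TCF factors. The α-defensin genes lie in a cluster of close copies. Of the genes that define the members, Gm14851 and AY761184 are cryptdin-related sequence genes of that cluster, Defa23 is a cryptdin, and Clps encodes colipase, a cofactor of pancreatic lipase.

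The promoters of these genes are shown because the members were told apart by copies of the same gene family. The letters run 5′ to 3′ on the gene's own strand over the 160 bases before the start site (RefSeq, GRCm38.p6). Capitals mark CTTTGAT, read on either strand, which is the core that TCF/LEF factors recognise, and TATAAA, the TATA box. Members were high in the first pair of genes, and the next 3 belong to the Defa21 side.
Defa23, chr8:21054880-21055039, plus strand: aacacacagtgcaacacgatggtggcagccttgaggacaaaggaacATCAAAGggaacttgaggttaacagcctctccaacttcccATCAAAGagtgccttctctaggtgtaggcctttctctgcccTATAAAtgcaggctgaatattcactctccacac
Gm14851 (RefSeq Defa38), chr8:21096051-21096210, minus strand: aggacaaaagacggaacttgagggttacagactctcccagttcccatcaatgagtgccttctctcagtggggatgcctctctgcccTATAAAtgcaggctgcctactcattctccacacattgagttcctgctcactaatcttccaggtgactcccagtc
Defa21, chr8:21025385-21025544, plus strand: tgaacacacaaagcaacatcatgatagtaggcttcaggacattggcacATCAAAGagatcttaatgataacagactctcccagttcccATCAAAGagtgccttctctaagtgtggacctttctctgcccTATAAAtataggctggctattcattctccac
Defa22, chr8:21162117-21162276, plus strand: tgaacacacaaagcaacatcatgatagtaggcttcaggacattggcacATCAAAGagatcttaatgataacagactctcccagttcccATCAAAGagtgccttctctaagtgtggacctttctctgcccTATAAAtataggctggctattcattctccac
Gm15308 (RefSeq Defa32), chr8:21528870-21529029, plus strand: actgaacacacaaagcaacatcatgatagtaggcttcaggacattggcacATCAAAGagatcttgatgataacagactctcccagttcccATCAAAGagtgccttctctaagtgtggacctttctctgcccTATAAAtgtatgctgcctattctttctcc

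The promoters of Defa21 and Defa22 were identical over 250 bases, and that of Gm15308 matched Defa21 at 96.4% of aligned positions. Defa23, although on the other side of f, matched Defa21 at 78.3% and held the same 3 elements. Its CTTTGAT matches began 114 and 74 bases before the start, against 112 and 72 in Defa21, and all were on the strand opposite to the gene. Gm14851 matched Defa21 at 58% and held TATAAA but no CTTTGAT in this window. CTTTGAT occurred in 3.21% of all 32851 promoters of this length in the table and a second copy in 0.0822%. Among the 13 of 24 defensin-cluster genes with a promoter in the table, 10 held CTTTGAT and 7 held it more than once. These matches are letters only, and factor binding was not measured.

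A close pair from the cluster had unlike ratios. The promoters of Gm10104 and Gm14850 differed at 5 of 250 positions.
Gm10104 (RefSeq Defa35), chr8:21064878-21065037, plus strand: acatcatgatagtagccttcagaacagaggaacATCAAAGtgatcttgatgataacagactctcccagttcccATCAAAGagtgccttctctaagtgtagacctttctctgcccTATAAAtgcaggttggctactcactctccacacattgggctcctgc
Gm14850 (RefSeq Defa37), chr8:21565226-21565385, plus strand: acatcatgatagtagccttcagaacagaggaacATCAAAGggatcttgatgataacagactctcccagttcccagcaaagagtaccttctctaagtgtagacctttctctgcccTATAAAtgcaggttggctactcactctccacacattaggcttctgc
Gm10104 was at 369 CPM (UMIs of the gene divided by all UMIs of the group, times 1e+06) in WT members against 757 CPM in WT Defa21-rich cells, and at 307 against 595 CPM in KO. Gm14850 was at 30400 against 29964 CPM in WT and at 27572 against 28482 CPM in KO. So Gm10104 was lower in members in both libraries, and Gm14850 had log2 ratios of 0.02 and -0.05. The 3′ ends of this pair were 97.0% identical, so reads could be split between them.

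f did not divide Paneth cells at a gap. In WT its distribution had a first peak between 0.1 and 0.2 (14.8% of Paneth cells), a low of 6.04% between 0.4 and 0.5, and a second peak of 29.4% between 0.7 and 0.8. In KO the first peak was lower (8.56% between 0.1 and 0.2) and 24.9% of cells lay between 0.6 and 0.7 and 26.1% between 0.7 and 0.8. The pooled median therefore ran through the flank of the upper peak, and 75.7% of WT and 62.8% of KO members had f below 0.5. The member nearest the cut had f of 0.635582 in WT and 0.635985 in KO, and the nearest cells outside had 0.636161 and 0.636796. Within 0.05 of the cut lay 198 WT and 116 KO members, and 329 WT and 154 KO cells outside it.

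**Figure D1:**
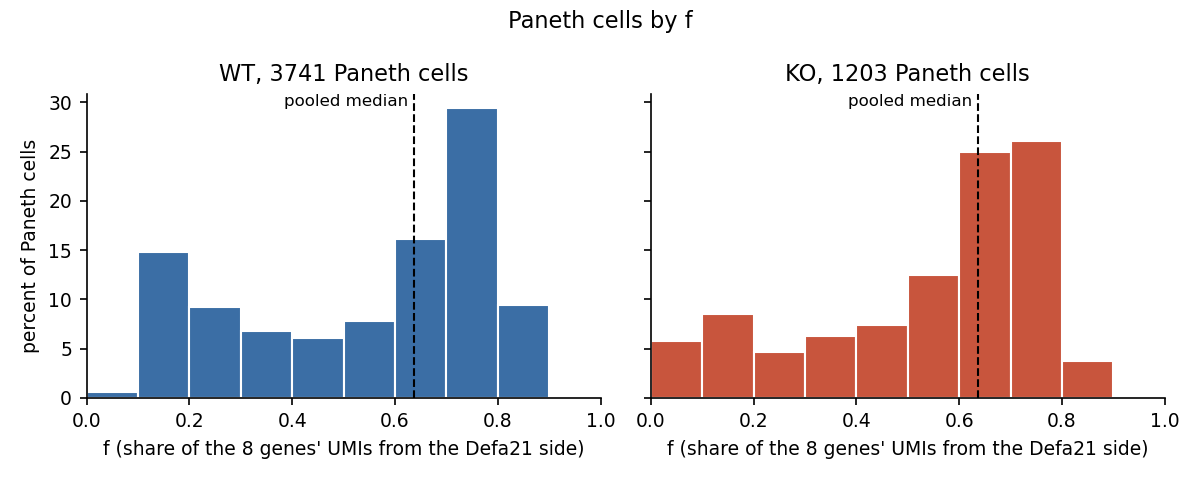
Share of Paneth cells (percent) in bins of f for the WT and the KO library, with the pooled median of f as a dashed line. Both libraries show a low peak and a high peak of f, and the cut lies on the flank of the high one, at 0.636.

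Members made up 49.3% (47.7 to 50.9%) of WT Paneth cells and 52.1% (49.3 to 55.0%) of KO Paneth cells, a log2 ratio of KO to WT of 0.08 (-0.05 to 0.21). The direction of this ratio depended on the cut: with f below 0.5 the shares were 37.3% and 32.8%, and with f below 0.4, a cut chosen after seeing the data, 31.3% and 25.4%. Of all kept barcodes, members were 17.4% (16.7 to 18.2%) in WT and 10.7% (9.88 to 11.5%) in KO, a log2 ratio of -0.71 (-0.84 to -0.58). Defa21-rich cells gave -0.87 (-1.01 to -0.74) on the same denominator. Fewer members per barcode thus went with fewer Paneth cells of both kinds, 35.3% of kept barcodes in WT and 20.5% in KO.

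Depth differed between the libraries, and the study's methods name reagent chemistry v2 or v3 without saying which library had which, so a difference in chemistry, if there was one, cannot be told apart from genotype in any KO to WT value. The median member held 19637 UMIs in WT and 41536 in KO, and the median Defa21-rich cell 24184 and 43696. RNA of Paneth cells was also found in other cells: in tuft-marker cells (kept barcodes with UMIs of at least 4 of 9 tuft cell genes and under 20% Defa UMIs), which should make no defensin, 5.41% of WT and 4.14% of KO UMIs came from the defensin cluster, against 63.8% and 62.6% in members. In kept barcodes that were not Paneth cells, the median f was 0.704 in WT and 0.628 in KO, and f of their summed UMIs was 0.663 and 0.523, so f there lay above the cut in WT and below it in KO. The part of free RNA in the f of shallow cells was not tested. With at least 10000 UMIs per barcode, a limit chosen after seeing the data, members were 49.5% of WT and 51.6% of KO Paneth cells. The libraries shared 57 barcodes, of which 13 were kept in both and 1 was a member in both.

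By their markers the members were Paneth cells. Lyz1, the Paneth lysozyme, was at 42888 CPM in WT and 41098 CPM in KO members, and had a UMI in all of them, against 3989 and 3080 CPM in tuft-marker cells. Itln1 (intelectin) was at 42287 and 32243 CPM, Mptx2 (a mucosal pentraxin) at 11602 and 12605 CPM, Ang4 (an antimicrobial ribonuclease) at 12881 and 10035 CPM, and Mmp7, the protease that activates pro-cryptdins, at 2664 and 2264 CPM.

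All 8 immune genes together gave 147 CPM in WT and 244 CPM in KO members, nearly all of it from Cd74, with 4 and 5 genes at 0. The 9 tuft genes gave 9.09 and 5.20 CPM. Of 14 pancreatic acinar genes measured, 10 were at 0 in each library and the sum was 20.7 and 16.5 CPM, almost all of it from Cela1 and Pnliprp1. Goblet genes summed to 6787 and 4675 CPM, enterocyte genes to 919 and 1513 CPM and endocrine genes to 87.5 and 32.8 CPM. The same sums in Defa21-rich cells were 5871 and 4204, 785 and 1666, and 76.6 and 67.3 CPM.

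The genes of the rule are given as a description, since they chose the cells. AY761184 was the most abundant of them in members, at 69752 CPM in WT and 77381 CPM in KO, against 34459 and 35486 CPM in Defa21-rich cells. Gm14851 was at 39716 and 45834 CPM against 27121 and 33341 CPM. Clps was at 4773 and 4384 CPM against 2848 and 2930 CPM, and Defa23 at 2196 and 1774 CPM against 1327 and 1167 CPM. Each of these 4 was thus higher in members by at most 1.12 on the log2 scale, and none was absent from Defa21-rich cells.

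On the Defa21 side, Gm15308 stood furthest apart, at 10572 CPM in WT and 13550 CPM in KO members against 40833 and 45115 CPM in Defa21-rich cells. Defa21 was at 31463 and 37579 CPM against 75379 and 73718 CPM. Members still held more Defa21 than Defa23 UMIs in each library, so the name of the cells describes a balance between copies and not an order of abundance.

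Single members varied widely in the Defa21 side and less in the Clps side. In WT members the 10th percentile, median and 90th percentile of Defa21 were 7786, 18973 and 56747 CPM, and those of AY761184 were 41556, 68586 and 100342 CPM. In KO members Defa21 ran at 6248, 30075 and 66443 CPM. Clps had a UMI in 99.9% of WT and 99.8% of KO members. Across the 1845 WT members, Spearman correlations of CPM were 0.74 between Gm14851 and Defa23, 0.51 between Clps and Defa23 and 0.90 between Defa21 and Defa22, and 0.79, 0.66 and 0.92 across the 627 KO members. The cells of each set share a library and the rule's ratio, and Defa21 and Defa22 share sequence, so these values are a description.

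The rule genes other than Clps lie in the α-defensin cluster at chr8:21025545-21735471 (mm10), among 28 protein-coding genes, of which 24 had at least 100 UMIs over the Paneth cells of each library. Both sides were interleaved along the cluster: Defa21 came first, then Defa23, Gm14851, Defa22, Gm21002, Gm15308 and AY761184. Clps lies on chr17:28558149-28560766. Defa24 was the most abundant gene of both kinds of cell, with 23.4% of all UMIs in WT and 20.1% in KO members, and 17.3% and 16.4% in Defa21-rich cells.

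Cluster genes outside the rule also differed, and took part in both directions. Defa20 was lower in members, at 37232 against 86945 CPM in WT (log2 -1.22) and 46755 against 82923 CPM in KO (-0.83). Gm15315 (-0.83 and -0.72), Gm15293 (-0.56 and -0.46) and Defa5 (-0.54 and -0.43) were lower by less. Gm15284 was higher in members, at 95249 against 65396 CPM in WT (log2 0.54) and 79389 against 62622 CPM in KO (0.34). Defa17 (0.62 and 0.41), Defa26 (0.53 and 0.39) and Defa24 (0.43 and 0.29) had log2 ratios of the same sign. Gm14850, Gm7861, Gm7849 and Gm6696 lay between -0.05 and 0.09 in both libraries.

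**Figure D2:**
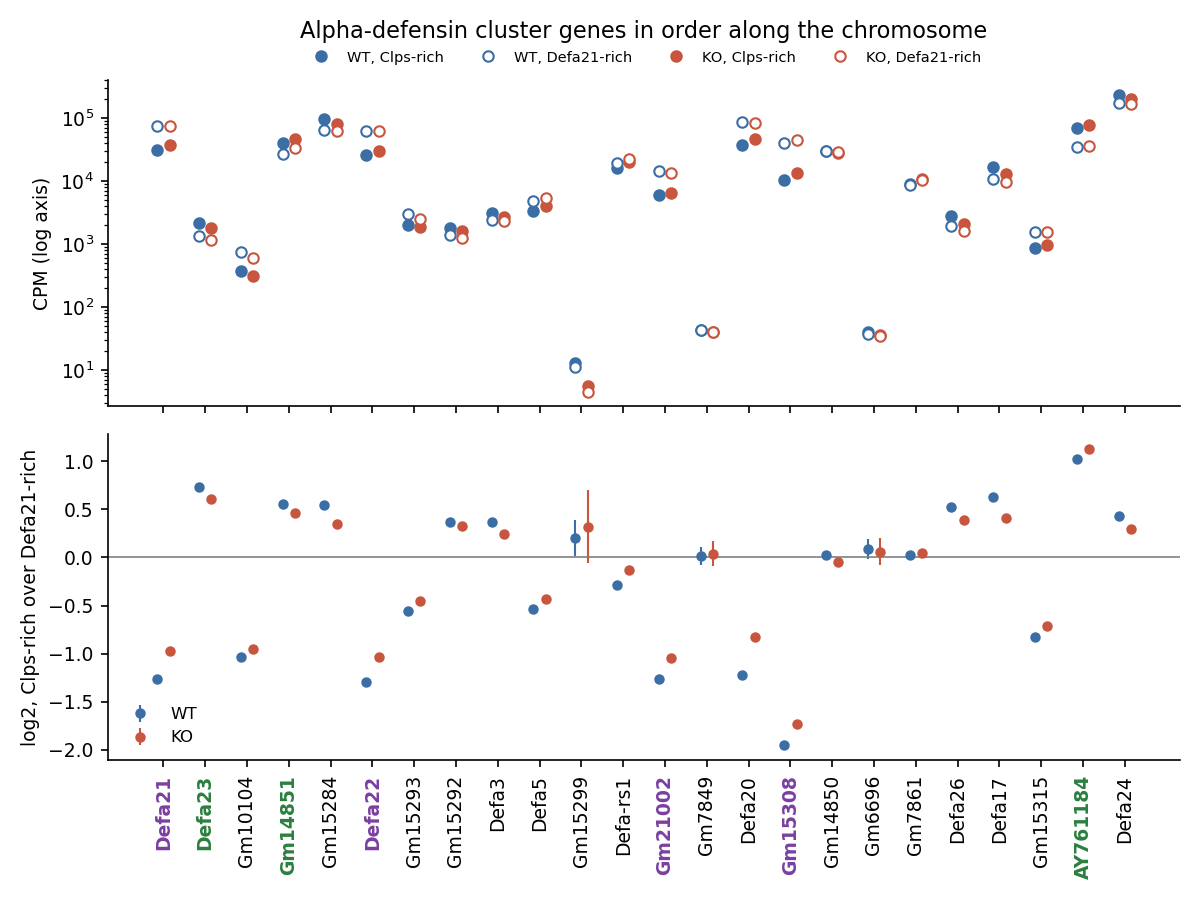
Levels (CPM, log axis, upper panel) and log2 ratios of Clps-rich to Defa21-rich cells (lower panel, bars are exact 95% counting intervals) for the 24 measured genes of the α-defensin cluster in chromosome order, WT blue and KO red. Green names are rule genes of the Clps side and purple names those of the Defa21 side; Gm15308 has the lowest ratios (-1.95 and -1.74) and AY761184 the highest (1.02 and 1.12).

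Copies limit what these counts can separate. In the last 400 bases of the annotated transcripts, where 3′ reads fall, AY761184, Defa24 and Clps shared no stretch of 90 bases with another gene. Gm21002 shared all of its stretches, Gm15308 and Defa20 99.7%, Defa23 92.6% and Defa21 42.1%. Gm15308 and Defa20 were identical at 99.8% of positions there, and Defa23 and Defa3 at 97%. Reads from such stretches cannot be assigned, so the levels of these genes are uncertain, and Defa20 is no separate evidence beside Gm15308. The same holds for Gm14850 and Gm7849, which shared all of their stretches, Gm7861 (94.2%), Defa5 (92.0%), Defa17 (90.9%) and Gm15315 (75.9%), and Defa17 was also 97% identical to Defa23.

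Outside the rule genes and the symbols starting with Defa, few genes set members apart. Of 7508 such genes with at least 100 UMIs over the Paneth cells of each library, 10 of them α-defensin cluster genes with Gm symbols, 10 (0.133%) were at least 2-fold higher in members in both libraries and 6 (0.0799%) at least 2-fold lower. In WT alone 15 (0.2%) were higher and 7 (0.0932%) lower, of which 1, Gm10104, was a cluster gene, and in KO alone 20 (0.266%) and 9 (0.12%). The same cells and libraries gave f, so these ratios describe the members and were not tested. The median gene had a log2 ratio of 0.07 in WT and 0.14 in KO, and with the rule genes and Defa symbols left out of the denominator it was -0.10 and -0.01. In all, 55.8% of genes were higher in members in both libraries and 11.9% lower in both, against 16.0% and 42.5% with that denominator. The share of genes above 0 went from 66.6% to 25.6% in WT and from 77.3% to 47.8% in KO with that denominator, so small ratios have no fixed sign.

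Rnase1, a secreted pancreatic-type ribonuclease, had the largest log2 ratio when each gene was ranked by the library in which it was nearer 0. It was at 392 CPM in WT members against 48.1 CPM in WT Defa21-rich cells (log2 3.03, 2.96 to 3.10), and at 253 against 28.9 CPM in KO (log2 3.13, 3.01 to 3.25). Tuft-marker cells had 18.2 and 41.2 CPM. With every cell thinned to 1500 UMIs, 43.6% of WT members had a Rnase1 UMI against 7.96% of Defa21-rich and 4.76% of tuft-marker cells, and in KO 26.3% against 4.69% and 3.06%. Unthinned, the shares were 90.3% of WT and 79.7% of KO members. Rnase1 followed f through the whole range: in WT its level was 673 CPM at f of 0.1 to 0.2, 360 CPM at 0.3 to 0.4, 176 CPM at 0.5 to 0.6 and 39.5 CPM at 0.7 to 0.8, and in KO it was 559, 188, 72.2 and 28.7 CPM in the same bins.

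**Figure D3:**
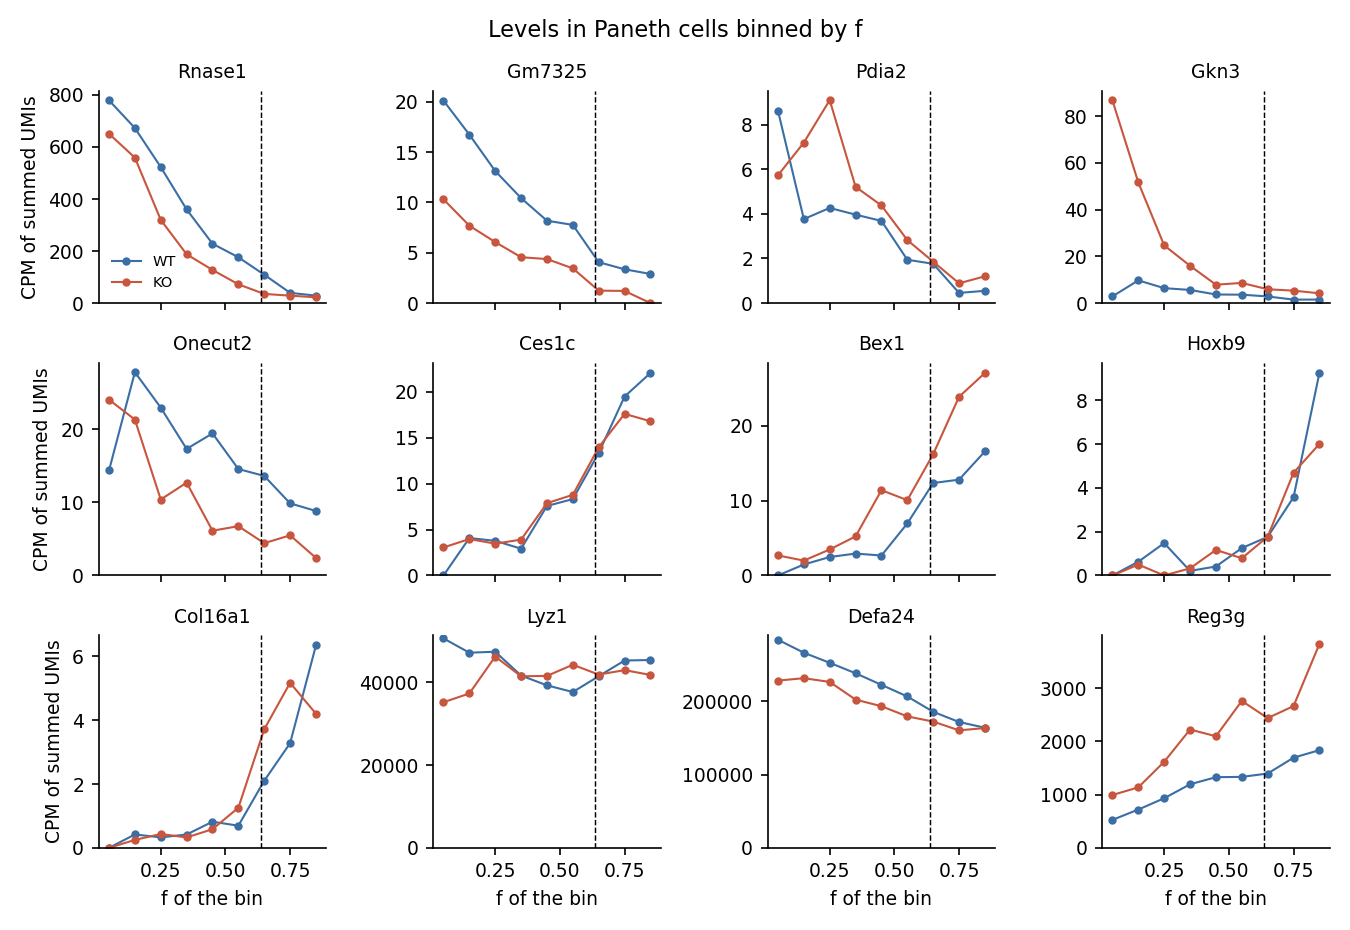
Level (CPM of the summed UMIs of each bin, linear axes from 0) of 12 genes in Paneth cells binned by f, WT blue and KO red, with the pooled median of f dashed. Rnase1, Gm7325 and Pdia2 are higher in every bin below f of 0.5 than above 0.6, and Ces1c, Bex1, Hoxb9 and Col16a1 the other way round, in both libraries. Lyz1 stays between 35161 and 50571 CPM.

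The other genes higher in members were of low level. Gm7325 (Myomixer, a fusion protein of muscle cells) was at 10.9 against 3.53 CPM in WT and 5.28 against 0.902 CPM in KO. Pdia2, the pancreatic protein disulfide isomerase, was at 3.35 against 0.750 CPM and 5.16 against 0.856 CPM. Both were also below 2 CPM in tuft-marker cells and below 1 CPM over the other kept barcodes, so among these groups their levels were highest in members. The other kept barcodes pool several cell types, whose levels were not measured separately. Apoe, an apolipoprotein, was at 4.91 against 2.08 CPM and 3.08 against 1.53 CPM. Its levels were 6.44 and 3.17 CPM in tuft-marker cells, from 6 and 5 UMIs, and 4.09 and 3.63 CPM over the other kept barcodes. A930009A15Rik was at 2.87 CPM in WT and 3.88 CPM in KO members against 0.702 and 0.361 CPM in Defa21-rich cells, with 4.21 and 3.35 CPM over the other kept barcodes.

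A further set was higher in members than in Defa21-rich cells but higher still outside Paneth cells. Gkn3, a gastrokine that marks crypt base cells, was at 5.84 against 1.77 CPM in WT and 26.1 against 5.05 CPM in KO, with 17.1 and 32.3 CPM over the other kept barcodes. Onecut2, a transcription factor of the proximal intestine, was at 20.4 against 10.4 CPM in WT and 11.9 against 4.51 CPM in KO, with 134 and 59.0 CPM over the other barcodes. Sycn (syncollin, a granule protein), Acot1 (an acyl-CoA thioesterase), Tubb2b (a tubulin) and Agr3 (a disulfide isomerase) were also higher outside in both libraries. Onecut2 and Agr3 fell just short of 2-fold in 1 library each. The part of RNA from other cells in these differences was not tested.

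Genes lower in members were led by Nts, which encodes neurotensin, and Hoxb9. Nts was at 0.850 against 9.92 CPM in WT and 0.961 against 5.59 CPM in KO, but 54.1% of the WT and 81.5% of the KO UMIs of Defa21-rich cells came from 1 cell each. Sst (somatostatin) likewise had 65.4% and 87.6% of its UMIs in 1 Defa21-rich cell. Hoxb9, a posterior Hox gene, was at 0.930 against 4.14 CPM in WT (log2 -2.15, -2.72 to -1.62) and 0.600 against 3.83 CPM in KO (log2 -2.67, -3.57 to -1.87). Hoxb7 was at 0.584 against 2.54 CPM and 1.48 against 3.47 CPM. Over the other kept barcodes Hoxb9 was at 6.78 and 6.84 CPM and Hoxb7 at 4.17 and 5.44 CPM, above both kinds of Paneth cell. Members held 35 WT and 15 KO UMIs of Hoxb9, with 20% of the KO ones from 1 cell, and 22 and 37 of Hoxb7. The part of RNA from other cells in these differences was also not tested.

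Ces1c and Bex1 had higher levels than Hoxb9 in both libraries, while Col16a1 was about as low as Hoxb9. Ces1c, a carboxylesterase, was at 5.95 against 18.8 CPM in WT (log2 -1.66, -1.88 to -1.44) and 6.60 against 16.5 CPM in KO (log2 -1.32, -1.59 to -1.05), with 3.53 and 2.12 CPM in other kept barcodes. Bex1, a small adaptor protein of neurons and other cells, was at 4.30 against 13.4 CPM and 7.44 against 21.6 CPM. Col16a1, a collagen, was at 0.664 against 3.58 CPM and 1.16 against 4.37 CPM. It rested on 25 UMIs in WT and 29 in KO members, and 1 cell gave 13.8% of the KO ones. In the plot of levels along f, each of Ces1c, Bex1 and Col16a1 was higher in every bin above f of 0.6 than in any bin below 0.5.

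**Figure D4:**
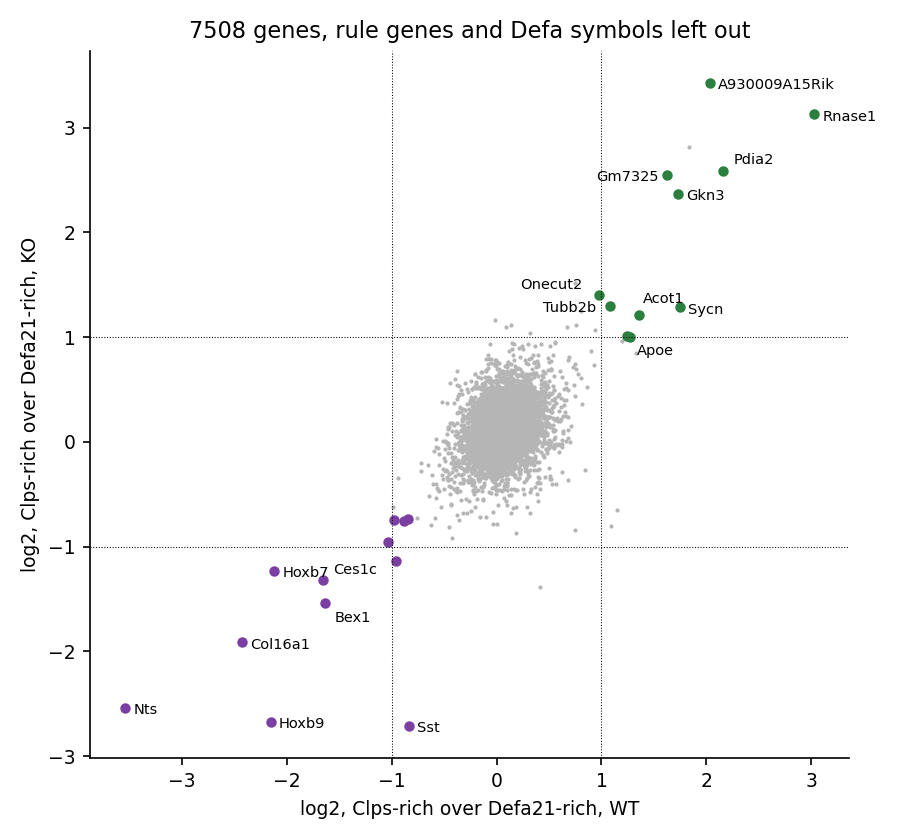
Log2 ratio of Clps-rich to Defa21-rich cells in WT (x axis) and KO (y axis) for 7508 genes outside the rule and the Defa symbols, with dotted lines at 2-fold. Coloured points are genes among the 12 with the largest and the 12 with the smallest ratios in both; Rnase1 is at 3.03 and 3.13 and most genes lie within 1 of 0.

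Among 21 measured Paneth secretory products other than defensins, 10 were higher in members in both libraries, 7 were lower in both and 1, Rnase1, was past 2-fold, with a median log2 ratio of 0.07 in WT and 0.01 in KO. Over all genes 55.8% were higher in both and 11.9% lower in both, with medians of 0.07 and 0.14. With the rule genes and Defa symbols left out of the denominator, 5 of the 21 products (23.8%) were higher in both. On that denominator 13 (61.9%) were lower in both, and all genes gave 16.0% higher and 42.5% lower. Reg4, a regenerating-family lectin, was at 1170 against 643 CPM in WT (log2 0.86) and 660 against 458 CPM in KO (0.53). Spink4, a protease inhibitor of secretory cells, was at 15037 against 10505 CPM and 10323 against 7512 CPM. Guca2b (uroguanylin) had log2 ratios of 0.56 and 0.37 and Itln1 of 0.30 and 0.21. On the other side, Reg3g, an antibacterial lectin, was at 1087 against 1656 CPM in WT (log2 -0.61) and 2014 against 2667 CPM in KO (-0.41), and Nupr1, a stress-induced nuclear protein, had -0.43 and -0.59. Lyz1 had -0.05 in each library.

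Of 12 measured transcription factors of Paneth cells none was past 2-fold, with medians of 0.08 in WT and 0.05 in KO. In both libraries 6 (50%) were higher and 2 (16.7%) lower in members, beside 55.8% and 11.9% of all genes. With the other denominator 2 (16.7%) were higher and 7 (58.3%) lower in both, beside 16.0% and 42.5% of all genes. Atoh1, the secretory lineage factor, had log2 ratios of -0.17 and 0.03, and Sox9, a Wnt target that Paneth cells need, 0.31 (0.20 to 0.41) and 0.40 (0.26 to 0.54). Wnt3, the Wnt ligand that Paneth cells supply to stem cells, was at 34.2 CPM in both kinds of WT cell and at 28.2 against 33.4 CPM in KO. Only 5 of 12 niche genes had enough UMIs, and Egf, Tgfa, Dll4 and Wnt11 were among those that did not.

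Of 14 measured Wnt pathway genes, 11 were higher in members in both libraries, against 55.8% of all genes, and none was lower in both or past 2-fold, with medians of 0.16 in WT and 0.34 in KO against 0.07 and 0.14 for all genes. With the rule genes and Defa symbols left out of the denominator, 7 (50%) were higher and 2 (14.3%) lower in both, with medians of -0.02 and 0.19. Over all genes that denominator gave 16.0% higher and 42.5% lower in both, with medians of -0.10 and -0.01. Ascl2, a stem cell factor, was at 4.62 against 2.78 CPM in WT (log2 0.73, 0.38 to 1.09) and 13.97 against 8.52 CPM in KO (0.71, 0.45 to 0.98). Lgr5 was at 7.07 against 7.72 CPM in WT and 8.24 against 6.72 CPM in KO. These genes were higher outside Paneth cells, and the sum over the list was 258 CPM in WT and 261 CPM in KO members against 1320 and 1010 CPM in tuft-marker cells. Stem genes summed to 152 against 134 CPM in WT and 154 against 104 CPM in KO. All 10 cell cycle genes were higher in members in both libraries, against 55.8% of all genes, with sums of 269 against 249 CPM and 317 against 259 CPM. With the other denominator, 3 of the 10 cell cycle genes were higher and 2 lower in both, beside 16.0% and 42.5% of all genes.

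Of 25 genes of endoplasmic reticulum folding and transport, 4 (16%) were higher and 7 (28%) lower in members in both libraries. Over all genes the shares were 55.8% and 11.9%. None of the 25 was past 2-fold, with medians of -0.06 and 0.04 against 0.07 and 0.14 for all genes. With the other denominator 21 (84%) were lower in both, against 42.5% of all genes. Regional genes were mixed: of 10 measured proximal genes 4 (40%) were higher and 1 (10%) lower in both, beside 55.8% and 11.9% of all genes. Among the 4 higher ones was Gata4, a factor of the proximal intestine, at 6.56 against 4.50 CPM and 4.40 against 2.84 CPM. Of 4 measured ileal genes 1 (25%) was higher and 1 (25%) lower in both, beside the same shares of all genes. With the other denominator 2 proximal genes (20%) were higher and 4 (40%) lower in both, beside 16.0% and 42.5% of all genes. On that denominator no ileal gene was higher in both and 1 (25%) was lower.

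Between genotypes, 139 of 8754 genes (1.59%) were at least 2-fold higher in KO members and 555 (6.34%) at least 2-fold lower, with a median log2 ratio of -0.12 and 57.4% of genes lower in KO. The balance turned with every cell thinned to 1500 UMIs, where only 1320 genes had enough UMIs, and 81 of them were higher and 38 lower. It did not turn with at least 10000 UMIs per barcode, where 153 genes were higher and 521 lower. Whether depth or the smaller set of genes turned the balance was not tested. With 1 library each, these values compare the libraries and not the conditions. Ctnnb1, the gene downstream of the deleted enhancer, was at 56.6 CPM in WT and 39.0 CPM in KO members (log2 -0.54, -0.65 to -0.43). It was at 56.5 and 35.3 CPM in Defa21-rich cells (-0.68, -0.80 to -0.56) and at 225 and 141 CPM in tuft-marker cells (-0.67, -0.95 to -0.39). With every cell thinned to 1500 UMIs, 8.56% (7.33 to 9.93%) of WT and 6.70% (4.87 to 8.95%) of KO members had a Ctnnb1 UMI, and these intervals overlapped.

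Defensins of the rule differed by less than 2-fold between the libraries within members. AY761184 had a log2 ratio of KO to WT of 0.15, Gm14851 of 0.21, Clps of -0.12 and Defa23 of -0.31, and Defa24 of -0.22. Gm15308 (0.36), Defa20 (0.33) and Defa21 (0.26) were higher in KO members, of which 116 of 627 lay within 0.05 of the cut against 198 of 1845 in WT. Paneth products had a median of -0.23 over 21 genes, with Reg4 at 1170 CPM in WT and 660 CPM in KO, Rnase1 at 392 and 253 CPM, and Lyz1 within 0.06 of 0. Kit, the receptor of stem cell factor, was at 13.4 and 4.24 CPM (log2 of KO to WT -1.66), against -1.75 in Defa21-rich and -2.23 in tuft-marker cells.

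Of 15 Wnt pathway genes, 7 had higher and 8 (53.3%) lower levels in KO members, near the 57.4% of all genes that were lower. Ascl2 was at 4.62 CPM in WT and 13.97 CPM in KO (log2 1.60, 1.33 to 1.87) and Sp5, a transcription factor induced by Wnt, at 1.94 and 4.64 CPM (1.26, 0.82 to 1.70). Axin2, the feedback inhibitor, was at 9.30 and 7.76 CPM, Rnf43, which removes Wnt receptors, at 7.36 and 5.32 CPM, and the ephrin receptor Ephb2 at 8.26 and 5.64 CPM. All 8 niche genes with enough UMIs were lower in KO members, against 57.4% of all genes, with a median of -0.63, among them Dll1, a Notch ligand, at 4.04 and 2.48 CPM and Wnt3 at 34.2 and 28.2 CPM. The sum over the niche list was 81.6 and 61.3 CPM in members, 186 and 82.5 CPM in tuft-marker cells and 173 and 87.7 CPM over the other kept barcodes.

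Of 13 Paneth factors 11 were lower, against 57.4% of all genes, and their sum was 319 and 261 CPM in members and 608 and 458 CPM in tuft-marker cells. Among them was Creb3l1, a membrane-bound factor of secretory cells, at 27.8 and 12.6 CPM (log2 -1.15). Secretory pathway genes were lower for 19 of 25, beside the same 57.4%, with Ern1, a sensor of unfolded proteins, at 7.73 and 3.08 CPM. The folding factors Manf (142 and 197 CPM) and Creld2 (18.8 and 31.9 CPM) were higher in KO.

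The 10 largest KO levels relative to WT, among 3780 genes with at least 500 UMIs in members, were those of Gkn3, Reg3b, Apoc3, Ascl2, Apoa1, Kcne3, Sult2b1, Fabp6, Spink1 and Prap1. Gkn3 had a log2 ratio of 2.16 (1.93 to 2.38) in members, 1.52 in Defa21-rich and 1.32 in tuft-marker cells. Reg3b, an antibacterial lectin of enterocytes and Paneth cells, was at 393 and 1516 CPM in members and at 948 and 6237 CPM in tuft-marker cells. Fabp6, the ileal bile acid binding protein, was at 180 and 503 CPM in members (log2 1.48) with 1.97 in Defa21-rich and 1.49 in tuft-marker cells, and Apoa1, an apolipoprotein of enterocytes, at 139 and 407 CPM. All 10 genes were higher in KO in the 3 kinds of cell, but the tuft-marker interval of Ascl2 reached past 0 (-0.0013 to 1.33). In tuft-marker cells every one of the 10 genes had a higher level than in members of the same library.

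The 10 smallest were AY036118, mt-Atp8, Gm42418, Lars2, Trp53inp1, Hist1h4d, Hist2h2ac, Thbs1, Hist1h1b and Hist1h1e. Gm42418, which overlaps ribosomal RNA repeats, was at 3891 CPM in WT and 358 CPM in KO members (log2 -3.44) and at 14289 and 1094 CPM in tuft-marker cells (-3.71). AY036118 was at 248 CPM in WT and 15.5 CPM in KO members, and had log2 ratios of -3.80 in Defa21-rich and -4.99 in tuft-marker cells. The histone genes, whose RNAs mostly lack a poly(A) tail, ran from -2.54 to -2.13 in members and from -3.05 to -1.83 in tuft-marker cells. Every one of these 10 was lower in KO in all 3 kinds of cell, but in tuft-marker cells Thbs1 rested on 3 and 2 UMIs (-4.92 to 1.78) and Trp53inp1 on 9 and 5 (-3.53 to 0.13).

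**Figure D5:**
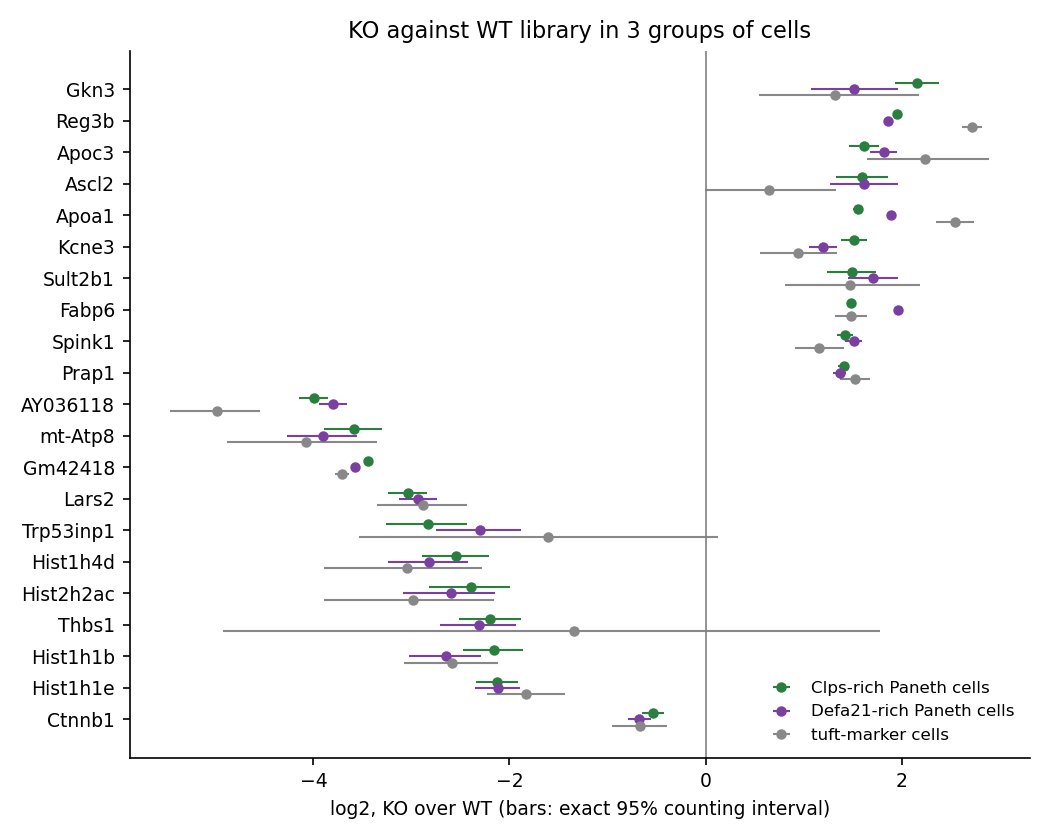
Log2 ratio of KO to WT for the 10 genes highest and the 10 lowest in KO members and for Ctnnb1, in Clps-rich, Defa21-rich and tuft-marker cells, with bars for exact 95% counting intervals. The 3 kinds of cell give the same sign for each gene, although the tuft-marker intervals of Thbs1, Trp53inp1 and Ascl2 reach past 0. Gkn3 is at 2.16 and Gm42418 at -3.44 in Clps-rich cells.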

How the data were processed

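The counts used here were whole-number UMI counts per gene and barcode, deposited by the authors as 1 filtered 10x matrix per genotype. The matrix headers name cellranger 4.0.0, while the submitters' processing notes name Cell Ranger 2.1.1 and mm10. Each genotype's 4 labelled samples were pooled in its matrix with no map to cells, so no test was run, and WT and KO are compared as libraries.

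The members and gene lists were chosen with earlier results of these data known. Counts were summed over the cells of a group and given as CPM. Intervals are exact 95% Clopper-Pearson or conditional binomial intervals, cover counting error only, and treat UMIs or cells as independent. A gene was called at 2-fold, with at least 100 UMIs over the Paneth cells of each library (members against Defa21-rich cells) or over the members of both libraries (KO against WT). Genes named were the rule genes and other defensins, members of fixed lists (Paneth products, factors, niche, Wnt and secretory genes), the 12 highest and 12 lowest by the ratio nearer 0 among genes of the same sign in both libraries, and the 10 highest and 10 lowest KO to WT ratios with at least 500 UMIs. A gene that this rule names is not reported here. Lists of goblet, enterocyte, ileal, proximal, stem, cell cycle, endocrine, tuft, immune and acinar genes were given as sums. Tuft-marker cells had UMIs of at least 4 of 9 tuft genes and under 20% Defa UMIs. No doublet caller was run. The study names a doublet filter, but the matrices held more barcodes than its filtered cells.

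Gene positions came from GENCODE M21 on GRCm38 (27645 of 27998 identifiers matched, 98.7%) and promoters from RefSeq GRCm38.p6. Computation used Python 3.11.15, numpy 2.4.6, pandas 2.3.3, scipy 1.17.1, Biopython 1.88 and matplotlib 3.10.9. The ratios and intervals were tested on simulated counts drawn independently, as the intervals assume. That test checks the computation and cannot show how the intervals hold where UMIs cluster by cell. The alternatives changed the Defa, mitochondrial and f limits, depth, denominator, cell weights and count filter.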

Additional observations from a re-analysis of the deposited data

Results flagged for a closer look

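Some genes had opposite signs in the 2 libraries when members were set against Defa21-rich cells, and these differences were not tested. The log2 ratios in WT and KO were 0.0881 and -0.14 for Habp2, -0.0806 and 0.0519 for Agr2, 0.13 and -0.19 for Fabp1, 0.34 and -0.19 for Fabp2, and 0.19 and -0.15 for Apoa1. They were 0.24 and -0.18 for Rbp2 and -0.0588 and 0.0695 for Gm42418. The hormone genes Gip (0.42 and -1.38) and Cck (1.09 and -0.80) rested on few cells. A single cell gave 71.4% of the Cck UMIs of WT members, and for Gip 1 cell gave 19.3% of those of WT members and 1 cell 32.1% of those of KO Defa21-rich cells.

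The ratio of KO to WT was compared in the same way among listed or named genes outside the rule and not given above. It had opposite signs in members and in Defa21-rich cells, each beyond its counting interval, for 4 genes, also without a test of the difference. It was 0.33 and -0.0683 for Defa20, 0.12 and -0.0414 for Mptx2, -0.13 and 0.0328 for Nupr1, and -1.16 and 0.72 for Sst. For Sst, 1 cell gave 87.6% of the KO Defa21-rich UMIs. Rule genes with opposite signs were Defa21 (0.26 and -0.032), Defa22 (0.24 and -0.022), Gm21002 (0.10 and -0.12) and Clps (-0.12 and 0.041).

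Barcodes left out for too few UMIs or genes also carried defensin RNA. Of those with at least 20% Defa UMIs, 7.65% (6.29 to 9.20%, 103 of 1346) had f below the cut in WT and 44.1% (40.5 to 47.7%, 336 of 762) in KO.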

How the results depend on the processing

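No paired analysis was possible because the cells of each genotype were pooled with no replicate number, and for the same reason no sample could be left out. The log2 ratio of KO to WT for members among Paneth cells (0.08) reversed to -0.0039 with at least 30% Defa UMIs, to -0.19 with f below 0.5 and to -0.30 with f below 0.4. Among kept barcodes (-0.71) it was -1.04, -0.98 and -1.09 under the same settings and -1.36 with at least 10000 UMIs. The last limit, f below 0.4 and each library's own median were chosen after seeing the data. Genes higher in members than in Defa21-rich cells (10 of 7508) numbered 4 of 6258 with 30% Defa UMIs and 2 of 706 with cells thinned to 1500 UMIs. They numbered 32 of 10721 with a filter of 20 UMIs and 110 of 12920 with 1 UMI. After thinning the share went from 0.133% to 0.283%, although the count fell. Genes lower (6) numbered 3, 1, 22 and 77 of the same genes tested, and 13 of 7508 with f below 0.4. Genes higher in KO members (139 of 8754) numbered 255 of 7739 with f below 0.5 and 297 of 7040 with f below 0.4. They numbered 271 of 7435 in the lowest tercile of f and 323 of 8754 by the mean of each cell's share. After thinning they numbered 81 of 1320, with a filter of 20 UMIs 273 of 11351 and with 1 UMI 632 of 13503. Genes lower in KO members (555 of 8754) numbered 38 of 1320 after thinning, fewer than the 81 higher. They numbered 982 of 11351 with a filter of 20 UMIs and 1360 of 13503 with 1 UMI. Thinning and the filters change how many genes have enough UMIs, and for the other settings the cause was not tested. Within KO, the log2 ratio of members to Defa21-rich cells for Mptx1 went from 1.16 to -1.06 with 30% Defa UMIs, and 1 cell gave 74.4% of its UMIs in KO members. Genes of a few CPM rest on UMIs in a small share of cells.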
